A study of Mus musculus with 9 samples.

Results

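The promoter sites bound by RelA and RelB are 223 regions of the mouse genome that were chosen by peak calls at 6 h of TNF treatment. Overlapping peaks of the 4 lists at 6 h (1 bp or more in common) formed 14781 merged sites, 1860 of these had a peak in every list, and 223 of the 1860 had their centre at most 1 kb from the start of a protein-coding gene. The remaining sites in all 4 lists were 740 within gene bodies and 897 between genes. Every site is named here by the nearest start, which gives 221 genes, since Gadd45b and Gem had a pair of sites each.

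The cells were Nfkb2-/- MEFs, mouse embryonic fibroblasts immortalised by serial passage, and every library came from this genotype, so no wild-type cells stand beside them. They were exposed to 10 ng/ml TNF, and chromatin was taken at 0 h and at 6 h of continuous exposure. Precipitation used anti-RelA (p65) or anti-RelB antibody. There were 2 libraries in each group of antibody and time, and peaks were called in each library against input chromatin from Nfkb2-/- MEFs. Nothing in the sources used here says whether both libraries of a group came from separate cultures, so the spread between them may be technical.

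RelA and RelB are NF-κB subunits that carry transactivation domains and bind κB sequences as dimers, mostly with p50 or p52. Inhibitors of the IκB family hold the dimers in the cytoplasm, and the p100 protein encoded by Nfkb2 is both the precursor of p52 and an inhibitor that retains RelB. TNF leads to IκB degradation, and several NF-κB target genes encode IκB proteins, NF-κB subunits and ubiquitin-editing enzymes that act back on the pathway.

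Each site has, in each library, the log2 fold of ChIP over scaled input reads in the strongest window of its peak. The 4 lists at 6 h held 5192 to 7052 peaks, and ChIP reads inside them summed to between 120352 and 162105. Total reads per library are unknown, so the sequencing depth behind a missing peak cannot be given. At the promoter sites the ChIP reads within a site ran from 11 to 267, and the median was 41 and 38 under RelA, 29 and 35 under RelB.

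Of the 15 strongest promoter sites, 7 lay at genes of the NF-κB system itself (Nfkbiz, Birc3, Relb, Nfkb2, Nfkbie, Tnfaip3 and Nfkbia). κB matches are shown first, because the sequence was no part of the choice of sites. The match is to the κB consensus, 10 bases that begin with a pair of G and a purine and end with 2 pyrimidines and a pair of C around 3 free bases, searched on both strands within 100 bp of the site centre. Capitals mark the match nearest the centre, and each stretch is written 5′ to 3′ on the strand of the gene in mm9. This match need not be where binding was strongest. At Nfkb2, a site of 2069 bp with 14 matches, it lay 544.5 bp from the mean position of the strongest windows. At Relb it lay outside the merged site, which was 35 bp long. The stretches were chosen from the strongest sites, the NF-κB subunits and regulators, and sites discussed further on.
Nfkbiz (chr16:55839016-55839045, minus strand, upstream of the start): ccgggtcttgGGGACCGCCCtggcggggaa
Birc3 (chr9:7873066-7873095, minus strand, exon): gaagagccacGGAAATCCCCagccagggtg
Relb (chr7:20214855-20214904, minus strand, upstream): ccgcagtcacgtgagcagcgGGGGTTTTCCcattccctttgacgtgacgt
Nfkb2 (chr19:46379806-46379855, plus strand, intron): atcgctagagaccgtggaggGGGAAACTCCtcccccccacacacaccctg
Cd83 (chr13:43880471-43880500, plus strand, exon): cctccgactgGGGAGTCCCCggggccggcg
Nfkbie (chr17:45692523-45692572, plus strand, upstream): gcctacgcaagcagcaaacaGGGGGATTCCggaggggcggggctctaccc
Tnfaip3 (chr10:18735209-18735238, minus strand, exon): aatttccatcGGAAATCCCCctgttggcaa
Rel (chr11:23671032-23671081, minus strand, upstream): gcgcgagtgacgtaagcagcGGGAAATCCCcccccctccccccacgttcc
Nfkb1 (chr3:135354547-135354596, minus strand, upstream): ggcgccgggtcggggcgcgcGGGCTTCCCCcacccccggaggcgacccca
Bcl3 (chr7:20408083-20408112, minus strand, exon): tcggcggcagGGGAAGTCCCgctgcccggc
Tnip1 (chr11:54776469-54776518, minus strand, upstream): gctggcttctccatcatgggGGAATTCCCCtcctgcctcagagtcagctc
Cxcl1 (chr5:91320181-91320230, plus strand, upstream): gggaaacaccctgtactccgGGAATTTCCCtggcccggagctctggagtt
B2m (chr2:121973277-121973326, plus strand): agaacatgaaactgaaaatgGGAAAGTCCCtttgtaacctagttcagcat
Fas (chr19:34364927-34364976, plus strand, upstream): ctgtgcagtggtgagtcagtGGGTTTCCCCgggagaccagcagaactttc
Ifngr1 (chr10:19312042-19312091, plus strand, intron): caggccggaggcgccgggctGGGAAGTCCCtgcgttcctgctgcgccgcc
Eif3c (chr7:133709300-133709349, minus strand, intron): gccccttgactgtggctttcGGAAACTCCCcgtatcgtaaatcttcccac

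Of the 223 promoter sites, 175 had a κB match within 100 bp of the centre, or 78.5% (Wilson 95% interval 72.6 to 83.4%). Windows of the same length lying 1 kb from the same sites on either side had a match in 74 of 446 (16.6%), and windows on all 22336 protein-coding starts with sequence had one in 21.1%. The shares at gene-body sites (75.5%) and intergenic sites (71.3%) had intervals that overlapped that of the promoter sites. A stricter consensus, with G at the third base, a purine at the fourth and A or T at the sixth, was matched at 141 promoter sites (63.2%) and in 3.34% of all starts. These intervals cover counting error only, and genes that share a promoter or a family are not independent.

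The κB sequences were diverse. Each match was read on the strand that fits the consensus, or in the alphabetically first orientation where both strands fit. A match printed above with GGG can thus be counted as its complement with GGA, as at Relb. Read this way, the 175 nearest matches held 70 distinct sequences, of which 38 occurred at 1 site only. In this orientation 79 matches began with GGG. The sequence GGAAAGTCCC was the most frequent, at 17 sites that included B2m and Ifngr2. GGAATTCCCC stood at 11 sites, among them Tnip1 and Bcl10, and GGAAATCCCC at 9, among them Birc3 and Tnfaip3. A second match was present at 94 of the 223 sites (42.2%). The median distance from match to site centre was 25.5 bp, and 93 of the 175 matches (53.1%) lay within 50 bp of the mean position of the strongest windows.

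The strength of binding varied little with the presence of a match. Sites with a match had median log2 folds of 3.24 and 3.17 with RelA and 3.26 and 3.23 with RelB. The 48 sites without one had 3.21 and 3.20 with RelA against 3.11 and 3.10 with RelB. With the sites ordered by mean log2 fold and cut into 4 groups, a match was present at 47 of the 56 strongest, 44 of the next 56, 40 of the next 56 and 44 of the 55 weakest, with intervals that overlapped throughout. The sites of Nfkbia, Cxcl10, Nfkbid and Irf1 had no match near the centre but 5, 4, 3 and 1 within the whole merged site, which was 1682 bp long at Nfkbia.

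Some other short motifs differed in share between promoter sites and the rest of the shared sites. The GC box (GGGCGG), a site of Sp1-family factors, was in 37.2% of the promoter windows (31.1 to 43.7%), against 5.95% at gene-body sites, 3.90% at intergenic sites and 40.0% of all starts. The AP-1 motif (TGANTCA), bound by Fos and Jun dimers, was in 10 of 223 promoter windows (4.48%, 2.45 to 8.06%), against 18.4% at gene-body and 17.8% at intergenic sites and 4.17% of all starts. For both motifs the promoter sites thus had shares near those of gene starts in general and outside the intervals of the distal sites. Base composition differed in the same way: the median GC content was 60.2% in promoter windows, 48.8% in gene-body windows, 46.8% in intergenic windows and 58.7% at all starts, and its part in these motif shares was not tested.

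The other motifs searched were found in fewer promoter windows than the GC box. The CCAAT box (CCAAT) was in 15.7% of promoter windows (11.5 to 21.0%), against 27.4% of all starts and 23.4% and 25.8% at gene-body and intergenic sites. The TATA box (TATAAA) was in 5.83% and 8.19% of all starts, against 8.51% at gene-body and 9.70% at intergenic sites. The core of the ETS motif (CCGGAAG) was in 4.93% and 9.39%, against 1.76% and 2.23%. The STAT motif (TTCNNNGAA) was in 8.97% of promoter windows and 5.01% of all starts, against 11.1% at gene-body and 11.9% at intergenic sites. The core of the interferon-stimulated response element (GAAANNGAA) was in 6.73% and 5.38%, against 7.70% and 7.36%. The cAMP response element (TGACGTCA) was in 2.24% and 1.93%, against 0.68% and 0%. The windows on promoter sites are centred on the peak and those on starts are centred on the start, so position was not matched between them.

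**Figure D1:**
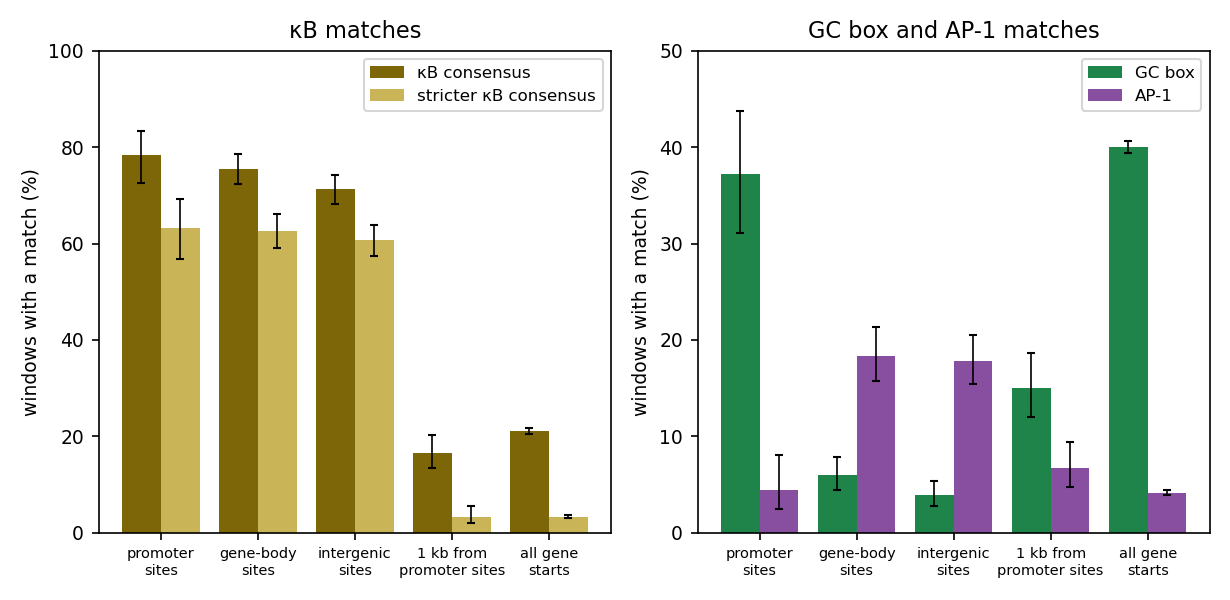
Share of windows of 201 bp with a motif match, in percent with Wilson 95% intervals, for promoter sites, gene-body sites, intergenic sites, windows 1 kb from promoter sites and all protein-coding starts. The left panel shows the κB consensus, at 78.5% of promoter sites and 21.1% of starts, and the right panel the GC box (37.2% of promoter sites) and AP-1 (4.48%).

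The promoter sites were spread on both sides of the start. The centre lay upstream at 115 of 223 sites (51.6%), and the median distance to the start was 282.5 bp. The 250 bp just upstream held 53 sites and the 250 bp just downstream 43. By annotation, the centre was upstream of the gene at 106 sites, in an intron at 60, in a non-coding part of an exon at 43 and in a coding exon at 14. Another protein-coding start lay within 1 kb of the centre at 13 sites, and a divergent start within 1 kb upstream of the nearest start at 6 (2.69%), against 7.15% of all protein-coding starts.

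The limit of 1 kb cut through sites of ordinary strength. The 3 sites just inside it were those of Micalcl at 980 bp, Pdgfra at 980.5 bp and Rhbdl3 at 984.5 bp, with log2 folds of 2.83, 2.91, 2.60 and 2.65 at Micalcl in RelA replicates 1 and 2 and RelB replicates 1 and 2. In the same order Pdgfra had 2.99, 3.89, 4.34 and 4.21, and Rhbdl3 1.97, 2.67, 2.50 and 2.70. Just outside lay the sites of Chchd1 at 1000.5 bp (2.89, 2.73, 2.46 and 2.78) and Slc1a5 at 1018.5 bp (3.70, 2.39, 4.17 and 2.98).

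**Figure D2:**
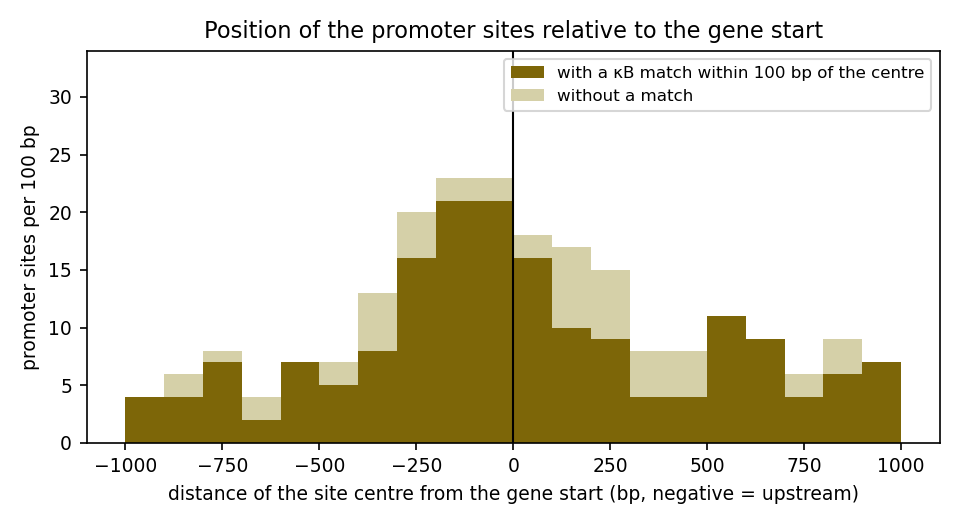
Number of promoter sites in bins of 100 bp by the distance of the site centre from the nearest protein-coding start, with negative values upstream; dark bars are sites with a κB match within 100 bp of the centre and pale bars those without. Sites lie on both sides of the start, 115 of 223 upstream, with the highest bins just upstream of it.

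The share of promoters differed little with the number of lists that held a site. Promoter sites made up 11.1% of the 10042 merged sites found in 1 list, 12.9% of 1673 sites in 2 lists, 11.1% of 1206 sites in 3 lists and 12% (10.6 to 13.5%) of the sites in all 4. Among promoter sites in 3 lists, 29 lacked a peak in RelA replicate 1, 35 in RelA replicate 2, 39 in RelB replicate 1 and 31 in RelB replicate 2. No single library accounted for most of the sites that missed the rule by 1 list.

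Strength at promoters was close to that of the other shared sites. The median log2 fold was 3.23 and 3.17 with the RelA antibody and 3.19 and 3.22 with the RelB antibody. The differences to the median of all other sites in 4 lists were 0.02 and 0.00 for RelA and -0.07 and -0.08 for RelB, a mean of -0.03 ± 0.05 (SD, n = 4 libraries). This spread is mostly between antibodies, with means of 0.010 (SD 0.013) for RelA and -0.075 (SD 0.011) for RelB, 2 libraries each. Within promoter sites the log2 folds ranged from 1.52 to 5.67, and the mean over 4 libraries from 1.99 to 5.08. Peak calls chose the sites, so these folds describe them and were not tested.

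Of 22367 protein-coding genes, 235 had a site in all 4 lists within 1 kb of the start, or 1.05%, some of these sites being near more than 1 gene. Over all lists of pathway genes, 38 of 237 annotated genes had one (16%). The lists were compiled around NF-κB biology with earlier results of these data known, so the shares describe the lists and are not independent evidence of an excess over the 1.05%.

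All 5 genes of the NF-κB subunits had a promoter site in all 4 lists. At Relb, which encodes RelB, the log2 folds were 5.21 and 5.29 with RelA against 4.70 and 3.10 with RelB, so that 1 RelB library lay far below the other 3 (ChIP reads in the fullest window of 55, 49, 30 and 15). At Nfkb2, which encodes p100, they were 4.68 and 4.59 with RelA against 4.38 and 4.37 with RelB, at a site in an intron with 14 κB matches in its 2069 bp. Both proteins were thus detected near the start of the gene that is disrupted in these cells.

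The other subunit genes were bound less strongly. Rel, which encodes c-Rel, had 3.90 and 3.98 with RelA against 3.26 and 3.56 with RelB, without overlap between the antibodies. Nfkb1, which encodes p105 and p50, had 3.51 and 3.38 with RelA against 3.19 and 3.56 with RelB, with overlap. Rela had 4.16 and 4.06 with RelA against 2.38 and 2.97 with RelB, the largest RelA minus RelB difference of the 5 (1.51 on the centred scale used for the test, against 1.43 at Relb).

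Of the 6 genes for IκB and nuclear IκB proteins, 5 had a promoter site in all 4 lists and Nfkbib had no peak within 1 kb. Nfkbiz, which encodes the nuclear protein IκBζ, was the strongest of all promoter sites, with log2 folds of 5.67 and 5.52 with RelA against 4.32 and 4.81 with RelB. Nfkbie (IκBε) had 4.39 and 4.70 with RelA against 4.0 and 4.64 with RelB. Nfkbia (IκBα) had 4.65 and 4.53 with RelA against 3.80 and 4.49 with RelB. All 3 lay among the 15 strongest sites, and the antibodies overlapped at Nfkbie only. Bcl3 had a mean log2 fold of 3.40 ± 0.20 (SD, n = 4 libraries) and Nfkbid 3.35 ± 0.36, both nearer the median of 3.20 over all promoter sites.

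Among 11 genes of ubiquitin feedback on the pathway, 3 had a site in all 4 lists. Tnfaip3, which encodes the ubiquitin-editing enzyme A20, had 4.76 and 4.70 with RelA against 3.91 and 4.30 with RelB, and 3 other sites in all 4 lists lay within 50 kb of its start. Tnip1, which encodes a partner of A20, had 3.72 and 4.0 with RelA against 3.18 and 2.56 with RelB. Cyld, a deubiquitinase, had 2.79 and 3.01 with RelA against 3.49 and 3.37 with RelB, so the order of the antibodies was the opposite of that at Tnfaip3 and Tnip1, and none of the 3 differences was called.

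Some genes of upstream signalling had promoter sites too. Of 15 TRAF, cIAP and RIP kinase genes, Traf3 and Birc3 had a site in all 4 lists. Birc3, which encodes the ubiquitin ligase cIAP2, had the second highest mean, with 4.60 and 4.94 with RelA against 4.80 and 5.06 with RelB, which overlapped. Of 12 genes for IKK, NIK and upstream kinases, Tank, Map3k7 (TAK1) and Map3k8 (TPL2) had one, with mean log2 folds from 2.83 to 3.06.

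**Figure D3:**
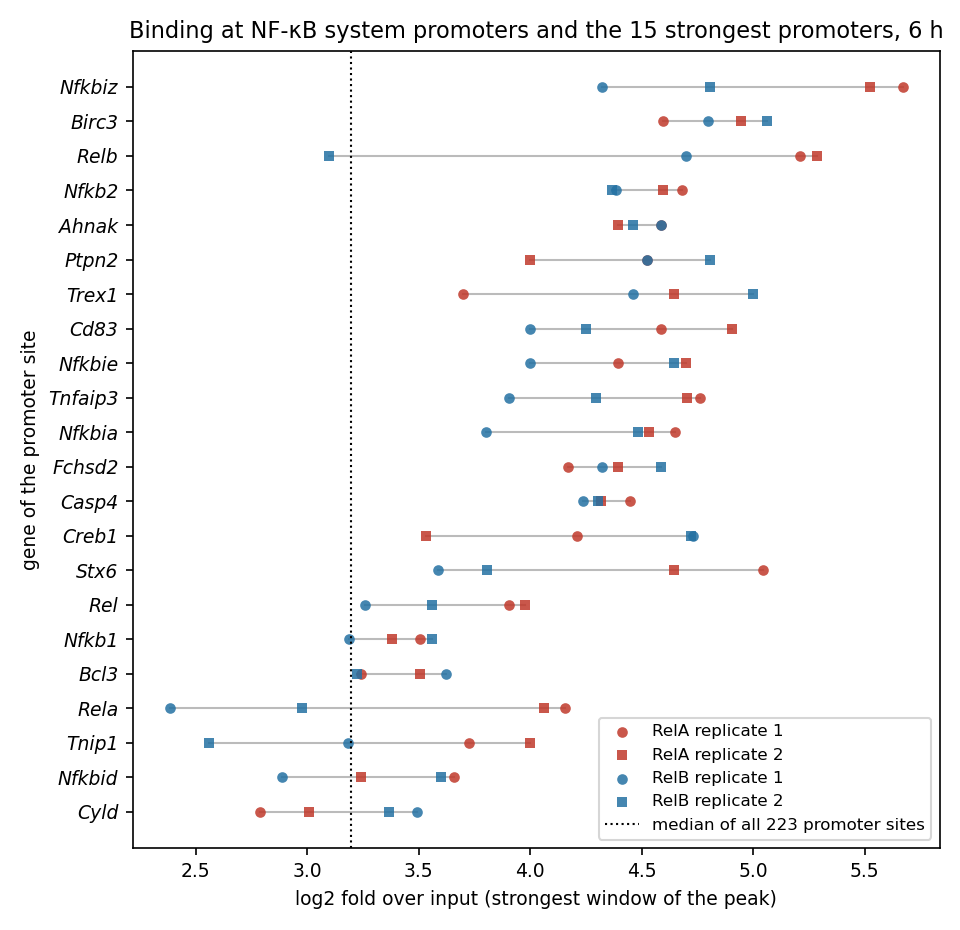
Log2 fold over input at 6 h in each of 4 libraries (red RelA, blue RelB, circles replicate 1, squares replicate 2) for the 15 strongest promoter sites and the promoter sites of NF-κB subunit, IκB and ubiquitin feedback genes, with a dotted line at the median of all 223 promoter sites. Nfkbiz and Birc3 lead, and at Relb 1 RelB library (3.10) lies far to the left of the others.

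Effector genes of the response included chemokines and cytokines. Of 24 annotated chemokine genes, Cxcl1, Cxcl10 and Ccl5 had a promoter site in all 4 lists, while 13 others had no promoter site in all 4 lists but at least 1 such site within 50 kb. Cxcl10 had 4.47 and 4.28 with RelA against 3.56 and 4.43 with RelB, and Cxcl1 had 4.70 and 3.91 with RelA against 3.81 and 3.91 with RelB. The antibodies overlapped at both. Of 25 cytokines and growth factors, Csf1 (M-CSF) and Il15 had one.

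Receptors and antigen presentation had a few strong sites. Fas, Ifnar1, Ifngr1 and Ifngr2 had a site in all 4 lists, of 21 receptor genes. H2-K1, H2-D1 and B2m, which encode heavy chains and the light chain of class I molecules, had one among 13 annotated genes of class I antigen processing. B2m (4.52 and 4.39 for RelA, 4.09 and 3.81 for RelB) and H2-D1 (4.09 and 4.17, 3.70 and 4.0) were well above the median in every library, whereas H2-K1 (2.87 and 2.40, 2.50 and 2.80) was below it in every library.

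Of 16 IRF and STAT genes, Irf1, Irf2, Irf5 and Stat5a had a site in all 4 lists, with mean log2 folds between 2.99 and 3.09. Tlr2 was the 1 gene of 19 Toll-like and NOD receptors and adaptors, at 2.53 ± 0.33 (SD, n = 4). Bcl10 and Gadd45b were found among 12 survival genes, and Vcam1 among 10 adhesion genes. None of 10 AP-1 genes, 14 genes of oxidative defence and iron handling or 20 proteasome subunits had one, although 1, 3 and 2 of them had a promoter site in 1 to 3 lists. In the same order, 5, 4 and 1 of them had at least 1 site in all 4 lists within 50 kb. Of 10 genes that the study's text names, Tlr2, Bcl10, Bcl3, Csf1 and Relb had a promoter site in all 4 lists and C3 in 2 lists. Psmc4, Me2, Klf5 and Mras had no peak within 1 kb. The study used a wider limit, 50 kb from the start, and reported C3 as bound by both proteins. Within 50 kb, C3 had 1 site in all 4 lists and Mras 2, while Psmc4, Me2 and Klf5 had 0.

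**Figure D4:**
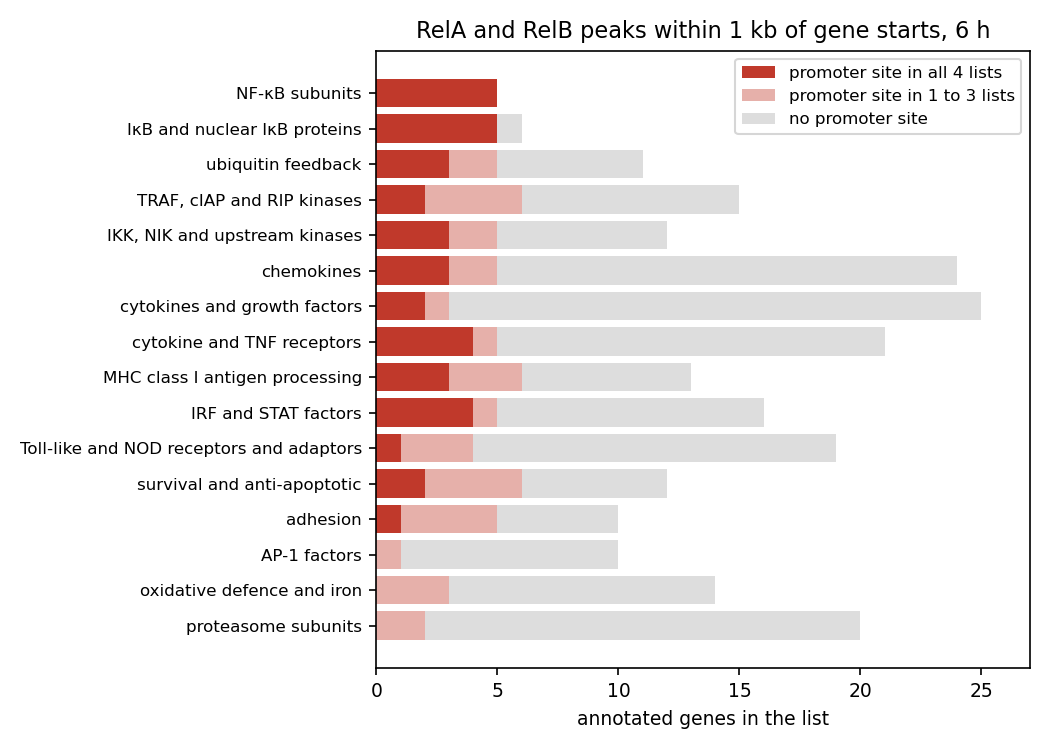
Number of annotated genes in each of 16 gene lists with a promoter site in all 4 lists at 6 h (dark), in 1 to 3 lists (pale) or with none (grey). The subunit list is filled (5 of 5) and the IκB list nearly so (5 of 6), and the lists of AP-1, oxidative defence and proteasome genes have 0 in all 4.

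Strong sites were also found at genes outside the lists. The other members of the strongest 15 were Ahnak, a scaffold protein, Ptpn2, a phosphatase of JAK and STAT signalling, Trex1, a DNA exonuclease, Cd83, a surface protein of the immunoglobulin family, Fchsd2, Casp4, an inflammatory caspase, Creb1, a cAMP-responsive factor, and Stx6, a SNARE of endosomes and the trans-Golgi. Ahnak had similar values in every library, with 4.58 and 4.39 with RelA against 4.58 and 4.46 with RelB. Stx6 had 5.04 and 4.64 with RelA against 3.58 and 3.81 with RelB, without overlap, and Creb1 had 4.21 and 3.53 with RelA against 4.73 and 4.72 with RelB, also without overlap but in the opposite order. The 5 weakest sites were those of Samhd1, H2-Q4, Smarca2, Rnf13 and Rufy1, with mean log2 folds from 1.99 to 2.25.

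Most promoter sites stood alone. No other site in all 4 lists lay within 50 kb of the start for 172 of 223 (77.1%), and 3 sites had 3 others, the one at Tnfaip3 and both at Gadd45b, an inhibitor of JNK signalling and cell-cycle regulator.

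Whether RelA and RelB differed in strength at these promoters was tested with limma on log2 folds, each library centred on its median over the 1860 sites, with Benjamini-Hochberg adjustment over those sites. The choice of sites did not use this difference directly, but it required a peak in both libraries of each antibody. Sites that strongly favour 1 antibody can therefore be missing, which limits the differences that can be seen here. At 4 of 223 promoter sites the adjusted p was under 0.05, against 11 of all 1860 sites (0.591%). All 4 were stronger for RelA, against 8 in that direction over all sites (0.43%). For RelB the count was 0 promoter sites, against 3 over all sites (0.161%). At an unadjusted p under 0.05 there were 54 promoter sites (24.2%), 36 stronger for RelA and 18 for RelB, against 16.8% of all sites.

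The called sites were those of Csf1, Fas, Rela and Atg10. Csf1, a growth factor of macrophages, had log2 folds of 4.40 and 4.57 with RelA against 2.94 and 3.21 with RelB, and a RelA minus RelB difference of 1.5 (SE 0.27, limma adjusted p = 0.0345). Fas, a death receptor, had 4.69 and 4.53 with RelA against 3.27 and 3.10 with RelB, a difference of 1.51 (SE 0.27, limma adjusted p = 0.0332). Rela differed by 1.51 (SE 0.29, limma adjusted p = 0.0471). At the fourth, Atg10, an enzyme of autophagy conjugation, the folds were 4.45 and 4.35 with RelA against 3.07 and 2.67 with RelB, and the difference was 1.61 (SE 0.28, limma adjusted p = 0.0310). In all 4 the lowest RelA library was above the highest RelB library. The ChIP reads in the fullest window were 33 and 36 for RelA and 10 and 13 for RelB at Csf1, and 43 and 42 against 11 and 12 at Atg10, so the RelB values rest on few reads. Of the 4, Fas alone had a κB match within 100 bp of the centre, and Rela had 1 within the whole merged site. With peaks kept only at an FDR under 0.01, Csf1, Rela and Atg10 were no longer sites in all 4 lists. The number of calls moved with single libraries. Leaving out a library leaves 1 in its arm, which is then assumed to vary like the pair in the other. Without RelA replicate 1 or without RelB replicate 2 no promoter site passed (45 and 28 at an unadjusted p under 0.05), while the differences stayed at 1.62 and 1.33 at Atg10 and at 1.64 and 1.55 at Csf1. Without RelA replicate 2 there were 8, and without RelB replicate 1 there were 3. Without centring 1 promoter site passed, and counts of ChIP reads in the fullest window in place of folds gave 26, of which 20 were stronger for RelA.

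Sites with larger values for RelB were present but did not pass in this fit. Ifngr1, a chain of the interferon-γ receptor, had log2 folds of 2.56 and 2.58 with RelA against 3.91 and 4.0 with RelB, a RelA minus RelB difference of -1.30 (SE 0.26, limma adjusted p = 0.0510). Eif3c, a translation initiation subunit, had 2.36 and 3.06 with RelA against 4.12 and 4.30 with RelB, a difference of -1.42 (SE 0.31, limma adjusted p = 0.0638). Ifnar1, a chain of the type I interferon receptor, had 2.98 and 2.73 with RelA against 3.68 and 4.26 with RelB, a difference of -1.03 (SE 0.29, limma adjusted p = 0.118). At all 3 the lowest RelB library was above the highest RelA library. Alg6, an enzyme of N-glycan assembly, differed by -1.08 and did not pass (limma adjusted p = 0.0943). For RelA, Atr, the DNA damage kinase, was next to the threshold at 1.33 (limma adjusted p = 0.0510). Calls in the RelB direction appeared under other settings, with 3 promoter sites at an FDR under 0.01, 1 at a fold above 4, 2 without RelA replicate 2 and 6 on ChIP reads in the fullest window. Ifngr1 passed under the first, the second and the last of these (limma adjusted p = 0.0191, 0.0493 and 0.0260, in a range of 0.0090 to 0.435 over all alternatives), and Eif3c without RelA replicate 2 (0.0132) and on ChIP reads (0.0069), in a range of 0.0045 to 0.435. With the replicate number as a block, a pairing that the labels do not state, 6 promoter sites passed in the RelB direction and 13 in the RelA direction. Ifngr1, Eif3c, Alg6 and Ifnar1 were among the 6. Alg6 and Ifnar1 also passed on ChIP reads in the fullest window (limma adjusted p = 0.0050 and 0.0016). The second interferon-γ receptor gene, Ifngr2, did not share the pattern of Ifngr1, with 3.86 and 3.81 with RelA against 3.56 and 3.72 with RelB.

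Over all promoter sites, 203 of 223 (91.0%) had a difference within 2-fold in either direction, against 95.4% of gene-body sites and 96.1% of intergenic sites. All these sites had a peak with both antibodies by the rule, so high shares are in part set by the choice. The median RelA minus RelB difference was 0.17 on the centred log2 scale at promoters, -0.01 at gene-body sites and -0.04 at intergenic sites. In the 4 pairings of a RelA with a RelB library, the promoter median was above that of the other sites by 0.07, 0.17, 0.19 and 0.18, with the smallest value for replicate 1 with replicate 1. These pairings share libraries, 2 for each antibody, so they are not independent of each other. On the deposited scale, both RelA values were above both RelB values at 63 promoter sites (28.3%) and both RelB values above both RelA values at 45 (20.2%). At the other sites these shares were 18% and 30.7%. The 129 promoter sites rich in CpG (observed over expected ratio above 0.6) had a median difference of 0.17 and the other 94 had 0.14. At the 77 CpG-rich sites outside promoters it was -0.09. The promoter median was 0.13 at sites with a κB match and 0.26 at sites without one, and 0.36 over the 39 sites of listed genes against 0.13 over the other 184.

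Across the promoter sites, log2 folds of libraries with the same antibody had a Spearman correlation of 0.78 for RelA and 0.76 for RelB, and those of libraries with different antibodies 0.52 to 0.60. At the other sites the values were 0.73 and 0.76 for the same antibody and 0.59 to 0.63 for different ones. These correlations are across sites of the same genome with a common input, over 223 and 1637 sites, and are descriptions.

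**Figure D5:**
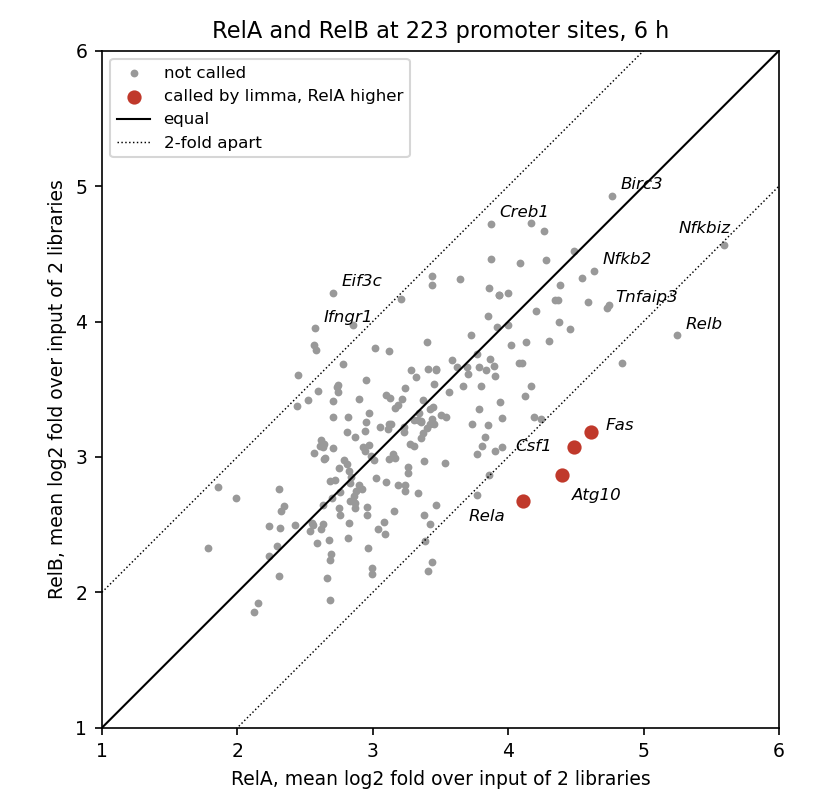
Mean log2 fold over input of 2 RelA libraries against that of 2 RelB libraries at 223 promoter sites at 6 h, with a solid line at equality and dotted lines at a 2-fold difference. The 4 red points (Atg10, Fas, Csf1, Rela) passed the limma test and lie on the RelA side, and Eif3c and Ifngr1 lie farthest toward RelB without passing.

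Before TNF the promoter sites had almost no peaks. The RelA lists at 0 h held 182 and 194 peaks, of which 23 and 25 lay within 1 kb of a protein-coding start, and 0 of the 223 promoter sites overlapped any of them. The RelB lists at 0 h held 35 and 14 peaks, and 1 overlapped a promoter site. It was at Nfkbia, on chr12:56592960-56592988 in RelB replicate 1 only, with a log2 fold of 1.82, an FDR of 0.0942 and 14 ChIP reads beside 7 input reads. At 6 h the same promoter had log2 folds of 3.80 and 4.49 for RelB, so the 0 h value was below both. This peak did not meet an FDR under 0.01 or a fold above 4, and when RelB replicate 1 at 6 h was left out of the merging, the count of promoter sites with a 0 h peak was 0. Peaks at 6 h chose the sites and sequencing depth at 0 h is unknown, so the absence of a 0 h peak describes the lists and gives no level of binding at 0 h.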

How the data were processed

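The authors trimmed single-end reads with cutadapt, aligned them to mm9 with Bowtie with unique alignments only, and used cisGenome to call the peaks of every library over Nfkb2-/- input. The deposited lists give a false discovery rate per peak (a q-value), the log2 fold over scaled input of the strongest window as the authors computed it, and counts of ChIP and input reads, deposited without normalization. No peak fell outside an FDR of 0.1, a fold of 2 or 4 reads. The input library's own list was left out.

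Peaks at 6 h were merged by overlap of at least 1 bp, and a site's value in a library is the highest log2 fold of its peaks there. Starts, 1 per gene, came from the GENCODE annotation of mm9, and sequences from that genome. Coordinates are those of the lists. Members and gene lists were chosen with earlier results of these data known. Libraries were grouped by antibody and time from their titles. Sites named are the 15 strongest and 5 weakest by mean log2 fold, those called by limma or the 5 with the smallest p where fewer were called, those of listed genes and of genes named in the study's text, those with a peak at 0 h, and the 3 on each side of the 1 kb limit. A few sites that this rule names are not reported here. Simulated data with known answers were used to test the merging, the limma fit and the motif search. Alternatives changed the FDR, fold, overlap, distance limit, start definition, chromosomes, window, consensus, normalization, summary of folds, replicate block and libraries. Total reads are unknown, so precision rests on reads per site, and Wilson intervals cover counting error only.

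Fits used limma 3.58.1 in R 4.3.3. The remaining steps used pandas 2.3.3, numpy 2.4.6, pysam 0.24.0, scipy 1.17.1 and matplotlib 3.10.9 under Python 3.11.15.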

Additional observations from a re-analysis of the deposited data

How the results depend on the processing

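The number of promoter sites, 223 as reported, was 164 with an FDR under 0.01 and 206 with a fold above 4. It was 205 when peaks had to overlap by 50% of the shorter one. The number was 152 with a limit of 500 bp, 269 with 2 kb and 270 with the start of every transcript. With 1 library left out it was 239 to 254, but a site then needed a peak in 3 lists only, a looser rule. The share of sites with a κB match was 55.2% within 50 bp of the centre, 89.2% within 200 bp, 63.2% with the stricter consensus and 89.2% over the whole merged site. Around the strongest windows, an alternative added after the data were examined, it was 78.0%, and without 1 library 77.8 to 81.8%. The 4 promoter sites that differed between RelA and RelB became 9 with an FDR under 0.01, 1 without centring and 26 on ChIP reads in the fullest window, and 0 to 8 without 1 library. Deviations from the group means had a correlation of -0.0026 between RelA and RelB libraries of the same replicate number across 1860 sites. Whether such libraries shared a culture or a batch is not stated, and the correlation cannot decide it. With the replicate block 19 promoter sites passed, 13 stronger for RelA and 6 for RelB. The count with a peak at 0 h fell from 1 to 0 with an FDR under 0.01 or a fold above 4, and was 0 to 1 without 1 library. The median log2 fold of promoter minus other sites was 0.020 on ChIP reads in the fullest window and -0.0098 to 0.047 without 1 library. Over the alternatives, the RelA minus RelB difference was followed only at the promoter sites with the smallest limma p in each direction. None of these differences changed sign in any alternative that kept the site. Some sites dropped out of an alternative, as Atg10, Csf1, Rela, Eif3c and Ifnar1 did with an FDR under 0.01. Sites that dropped out are not counted among the calls lost or gained given below. Other named sites were not followed, and the sign of small differences there can depend on centring. Ahnak had a centred difference of 0.05, but mean log2 folds without centring of 4.49 with RelA and 4.52 with RelB. Bcl3 had 0.03, with 3.37 and 3.42 in the same order. Across the followed sites and alternatives, 16 values lost the call and 18 gained it. The causes of these shifts were not tested, except where an alternative removes peaks or widens a window. Groups of 2 libraries and unknown total reads limit what a missing peak or an uncalled difference can show.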
